A study of Mus musculus with 4 samples.

Results

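The CC chemokines Ccl2, Ccl3, Ccl4, Ccl6, Ccl7, Ccl8, Ccl9, Ccl12, Ccl17 and Ccl24 were read in tumour-associated macrophages (TAMs) from mouse GIST (gastrointestinal stromal tumour), a sarcoma that arises in the gut wall. The 10 genes were taken as a family and had 12 probe sets with 1 gene symbol, of 20380 such probe sets and 12393 genes on the array. The macrophages had been sorted by flow cytometry from digested tumours of mice given imatinib or vehicle. Imatinib, an inhibitor of the Kit, Pdgfr, Abl and Csf1r kinases, was dissolved in the drinking water (600 mg/L) over 2 weeks, and the control mice received vehicle and no imatinib. Each group had 8 mice, whose cells were pooled, and each pool was run on 2 Affymetrix arrays from 200 ng of RNA, which gave 2 imatinib and 2 vehicle arrays. The labels call the animals GIST mice, all of which carry tumours, and the sources used here do not give the strain, alleles or age. By the design text the 2 arrays of each group are repeats of 1 pool, but their titles say biological replicate. The p-values therefore cover the spread between arrays alone, possibly a technical one, and the spread between mice was not measured.

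Chemokines are small secreted proteins that bind to receptors coupled to G proteins and steer the migration of leukocytes. The CC group is named for its adjacent pair of cysteines near the amino terminus. Ccl2, Ccl7 and Ccl12 are ligands of CCR2 and draw monocytes out of the blood. Ccl8 is related to them and acts in the mouse through CCR8. Ccl3 and Ccl4 are inflammatory chemokines of macrophages and lymphocytes, Ccl3 binds CCR1, and Ccl6 and Ccl9 are rodent ligands of CCR1. Ccl17 is a ligand of CCR4, a receptor of T helper cells, and Ccl24 is a ligand of CCR3, the receptor of eosinophils. Gut macrophages make many of these proteins, and NF-kappaB, AP-1 and, for Ccl17 and Ccl24, IL-4 signalling through STAT6 are known inducers of several of their genes.

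By the RefSeq order of coding genes, 8 of the 10 genes lie on chromosome 11 in 3 runs of direct neighbours. Ccl2 and Ccl7 form the first, Ccl12 and Ccl8 the second, and Ccl9, Ccl6, Ccl3 and Ccl4 the third. Ccl24 lies on chromosome 5 and Ccl17 on chromosome 8. Promoter sequences were found in RefSeq (build GRCm38.p6) for 6 of the 10 genes, Ccl3, Ccl6, Ccl8, Ccl9, Ccl12 and Ccl17. The 250 bases before the start site are printed 5′ to 3′ along the gene for 2 pairs of neighbours, because Ccl8 rose with imatinib while its neighbour Ccl12 did not, and both Ccl6 and Ccl9 rose. Capitals mark matches to the motifs searched.
Ccl8 (chr11:82114935-82115184, plus strand): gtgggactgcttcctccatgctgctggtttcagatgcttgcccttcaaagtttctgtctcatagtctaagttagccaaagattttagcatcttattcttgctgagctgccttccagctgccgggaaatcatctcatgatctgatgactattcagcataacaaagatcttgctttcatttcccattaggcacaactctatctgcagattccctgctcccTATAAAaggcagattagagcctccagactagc
Ccl12 (chr11:82101595-82101844, plus strand): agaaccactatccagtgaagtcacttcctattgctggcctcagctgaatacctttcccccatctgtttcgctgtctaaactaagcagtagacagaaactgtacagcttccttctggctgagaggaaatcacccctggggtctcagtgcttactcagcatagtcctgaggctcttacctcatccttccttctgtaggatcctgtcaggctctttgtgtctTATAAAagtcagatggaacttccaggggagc
Ccl6 (chr11:83593088-83593337, minus strand): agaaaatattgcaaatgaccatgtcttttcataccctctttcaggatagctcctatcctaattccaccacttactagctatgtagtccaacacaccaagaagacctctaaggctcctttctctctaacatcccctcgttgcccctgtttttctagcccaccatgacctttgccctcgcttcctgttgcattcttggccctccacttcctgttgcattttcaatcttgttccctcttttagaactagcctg
Ccl9 (chr11:83578637-83578886, minus strand): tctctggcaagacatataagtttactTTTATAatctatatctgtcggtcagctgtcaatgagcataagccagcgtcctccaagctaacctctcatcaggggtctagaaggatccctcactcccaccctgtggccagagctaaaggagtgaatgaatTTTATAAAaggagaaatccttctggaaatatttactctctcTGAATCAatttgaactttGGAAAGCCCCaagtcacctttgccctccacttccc
The motifs were searched on both strands of the 250 bases. The TATA box letters TATAAA lay 32 bases before the start site in Ccl8 and 31 bases before it in Ccl12, whose log2 differences were 0.51 and -0.21. In Ccl9 the same letters lay 92 bases before the start site, overlapping a reverse-strand match that begins 94 bases before it, and a further reverse-strand match lay at 224 bases. These 3 of the 6 promoters held the letters, against 12.4% of the 32851 promoters of that length in the table. The 10-letter NF-kappaB consensus was found in Ccl9 alone of the 6, on the reverse strand 35 bases before the start, and in 7.25% of all promoters. The AP-1 letters TGANTCA were found in Ccl9 alone of the 6, 53 bases before the start, and in 6.75% of all promoters. The STAT6 letters, TTC and GAA with 4 free bases between them, were found in Ccl17 alone of the 6, 154 bases before the start, and in 5.85% of all promoters. The C/EBP letters TTGCNNAA were in none of the 6 and in 9.56% of all promoters. A match describes letters in this window and is not evidence of a bound site.

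The values are MAS5 signals, linear intensities scaled by the authors so that the mean after trimming was 500.3 on each array. Differences are imatinib minus vehicle on the log2(signal + 32) scale with their SE, and folds are imatinib over vehicle on the same scale (n = 2 arrays each). The signal of 1 probe set is not comparable with that of another, so genes are compared by their changes only. Genes were tested with limma if the mean log2 value of their brightest probe set reached the 40th percentile of all probe sets, a signal of about 79.8. Of the 10 genes 8 passed, and each of these 8 lay above that signal on all 4 arrays. Ccl17 and Ccl24 did not pass.

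Of the 8 tested CC chemokine genes, 5 rose with imatinib and 0 fell (limma, Benjamini-Hochberg adjusted p below 0.05). At an unadjusted p below 0.05, 6 were higher and 1, Ccl12, was lower. Over all 8145 tested genes 6.80% were called higher and 8.73% lower at the adjusted threshold. At the unadjusted threshold 1032 of the 8145 were higher and 1255 lower. The 5 genes that rose were Ccl2, Ccl6, Ccl8, Ccl9 and Ccl4, by 1.82-fold at most for Ccl2 and 1.21-fold at least for Ccl4, each by its brightest probe set (the dimmer one of Ccl9 rose 1.92-fold). The median log2 difference of the 8 genes was 0.35, beside -0.02 over all tested genes. The arrays of the groups did not overlap for 7 of the 8, beside 56.0% of all tested genes. Of these 7, 6 were higher and 1 lower, beside 26.1% higher and 29.9% lower over all tested genes.

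**Figure D1:**
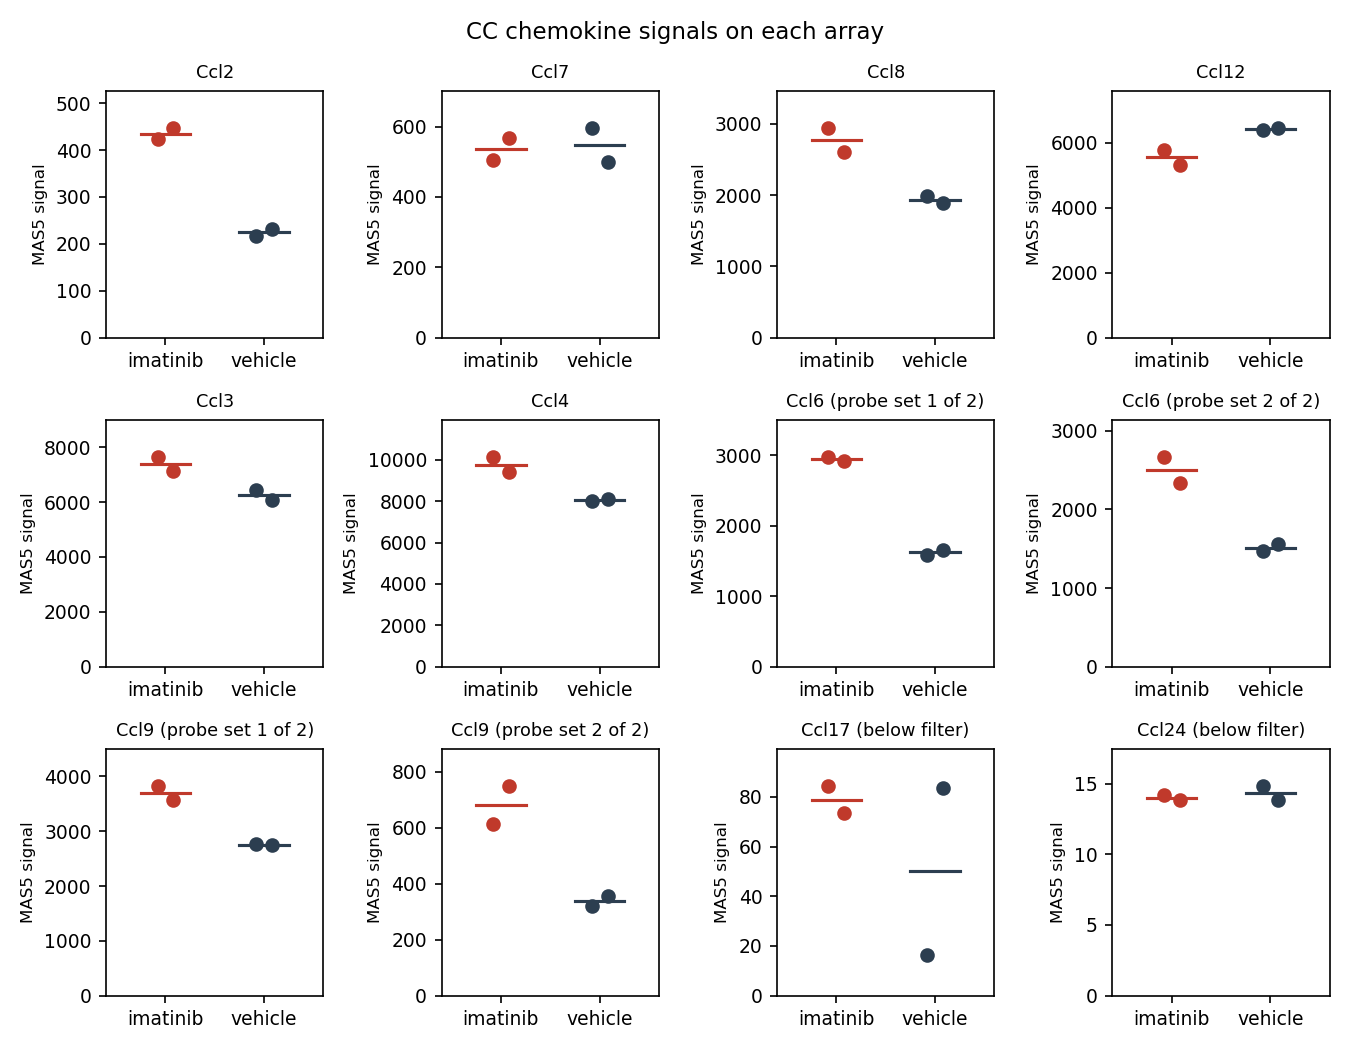
MAS5 signal (linear, each axis from 0) of the 12 probe sets of 10 CC chemokine genes on the imatinib arrays (red) and vehicle arrays (dark blue), with 1 point for each array and a line at the group mean. The imatinib arrays of Ccl2 read 424 and 447, above the vehicle arrays at 217 and 232, whereas the groups overlap for Ccl7 and Ccl17.

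The CCR2 ligands and their relative Ccl8 did not change alike. Ccl2, the main monocyte attractant, had signals of 424 and 447 on the imatinib arrays, against 217 and 232 on the vehicle arrays. Both imatinib arrays thus lay above both vehicle arrays, and the gene rose 1.82-fold (log2 difference 0.86 ± 0.15, SE, limma adjusted p = 0.0024). The ratio of the mean signals was 1.94, as the added 32 narrows the fold of a dim gene. Ccl2 ranked at place 83 of the 8145 tested genes by its increase.

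Ccl7, the direct neighbour of Ccl2, had signals of 506 and 567 with imatinib and 596 and 500 with vehicle. The groups overlapped, and the log2 difference was -0.03 ± 0.13 (limma adjusted p = 0.93), with a 95% interval from -0.32 to 0.27. That interval lies below the 0.86 of Ccl2. With array medians set equal the Ccl7 value was 0.13.

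Ccl8 had signals of 2937 and 2604 on the imatinib arrays, against 1982 and 1888 on the vehicle arrays. The groups did not overlap and Ccl8 rose 1.42-fold (log2 difference 0.51 ± 0.09, SE, limma adjusted p = 0.0033). Without the mean-variance trend the call was lost (adjusted p = 0.069).

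Ccl12, a mouse CCR2 ligand, had signals of 5788 and 5309 on the imatinib arrays, against 6378 and 6448 on the vehicle arrays. Both imatinib arrays lay below both vehicle arrays, but the difference did not pass the test (log2 difference -0.21 ± 0.08, SE, limma adjusted p = 0.10). Its 95% interval ran from -0.38 to -0.04. It passed as lower after quantile normalization (-0.30, adjusted p = 0.011) and was -0.05 with array medians set equal.

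The genes of the run Ccl9, Ccl6, Ccl3 and Ccl4 differed to unequal degrees. Ccl6 had signals of 2975 and 2915 on the imatinib arrays, against 1589 and 1658 on the vehicle arrays. The gene rose 1.80-fold (log2 difference 0.85 ± 0.08, SE, limma adjusted p = 5.4e-05) and ranked at place 89 of the 8145 tested genes. Its other probe set, of a class that may also match other transcripts, read 2663 and 2331 with imatinib and 1465 and 1562 with vehicle. It rose as well (0.71 ± 0.10, adjusted p = 0.00068, each probe set tested on its own, where 6.10% of 12483 probe sets were higher and 7.42% lower).

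Ccl9 had signals of 3820 and 3569 on the imatinib arrays, against 2759 and 2742 on the vehicle arrays, and rose 1.34-fold (log2 difference 0.42 ± 0.08, SE, limma adjusted p = 0.0050). Its dimmer probe set read 614 and 749 with imatinib and 319 and 358 with vehicle. That probe set rose by 0.94 ± 0.14 (adjusted p = 0.0013, each probe set on its own), so the 2 probe sets of Ccl9 moved the same way by different amounts although the platform annotation gives both the same accession. The call of the brighter probe set was lost without the mean-variance trend (adjusted p = 0.088).

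Ccl4 had signals of 10125 and 9402 on the imatinib arrays, against 7989 and 8102 on the vehicle arrays. The groups did not overlap, and the gene rose 1.21-fold (log2 difference 0.28 ± 0.07, SE, limma adjusted p = 0.029). Its call was lost without imatinib array 1 (log2 difference 0.22), without vehicle array 1 (0.27) or without vehicle array 2 (0.29). It was also lost without the mean-variance trend (limma adjusted p = 0.21) and with the replicate number as a block (adjusted p = 0.069). The same held after quantile normalization (adjusted p = 0.052) and without the signal filter (adjusted p = 0.078).

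Ccl3, the neighbour of Ccl4, had signals of 7633 and 7126 on the imatinib arrays, against 6453 and 6059 on the vehicle arrays. The imatinib arrays lay above the vehicle arrays, but the difference missed the threshold (log2 difference 0.24 ± 0.08, SE, limma adjusted p = 0.066). Its 95% interval, 0.06 to 0.41, overlaps that of Ccl4, 0.11 to 0.44. With array medians set equal Ccl3 passed as higher (0.40, adjusted p = 0.045).

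The CCR4 and CCR3 ligands were too dim to be tested. Ccl17 had signals of 84.3 and 73.5 with imatinib and 16.3 and 83.6 with vehicle. Vehicle array 2 thus lay within the range of the imatinib arrays, and vehicle array 1 lay below them. In a fit without the signal filter its log2 difference was 0.57 ± 0.43 (limma adjusted p = 0.53), with a 95% interval from -0.45 to 1.58. Ccl24 had signals of 14.2 and 13.9 with imatinib and 14.8 and 13.9 with vehicle. These 4 values span less than 1 signal unit, far under the filter, and the log2 difference was -0.01 ± 0.20 without the filter.

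**Figure D2:**
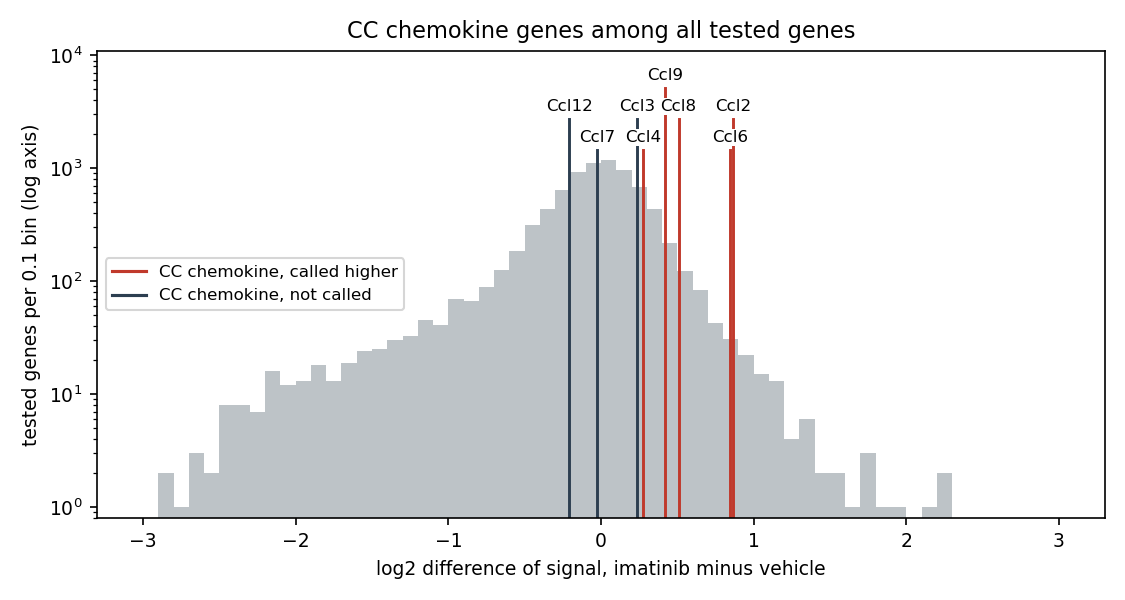
Histogram of the log2 difference (imatinib minus vehicle) of the 8145 tested genes, with the number of genes in each bin on a log axis and a line for each of the 8 tested CC chemokine genes. Ccl2 (0.86) and Ccl6 (0.85) lie farthest to the right of the 8, and Ccl12 (-0.21) lies farthest to the left.

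The scale of the arrays bears on every one of these values. Of 15 macrophage identity genes listed, 14 were tested, 10 were higher and 0 lower (limma; 11 higher and 0 lower at an unadjusted p under 0.05), with a median log2 difference of 0.42. Over all tested genes 6.80% were called higher and 8.73% lower. The summed signal of the 14 macrophage genes was 175631 and 168263 on the imatinib arrays, against 141647 and 141265 on the vehicle arrays. Mertk, an uptake receptor, rose 2.24-fold and the integrin gene Itgam rose 1.95-fold, the largest increases of the list. Of the genes not called, Csf1r was at 0.12, C1qa at 0.05 and C1qb at -0.09 (limma adjusted p from 0.33 to 0.71). Cd163 was at 0.85 (adjusted p = 0.12). Some dimmer probe sets of Csf1r and C1qb rose (0.24 to 0.46, each tested on its own). The 14 genes thus ran from -0.09 to 1.16, so a scale set by them depends on the markers chosen. When the mean of these 14 genes was set equal on all arrays, every log2 difference was lower by 0.50, and the share of tested genes called was 1.12% higher and 69.7% lower. On that scale Ccl6 was the 1 member of the family called higher (0.34 ± 0.10, limma adjusted p = 0.010). Ccl2 was at 0.36 ± 0.16 (adjusted p = 0.056), Ccl8 at 0.01 ± 0.10 and Ccl9 at -0.08 ± 0.10, none of which passed. Ccl3 (-0.27), Ccl4 (-0.22), Ccl7 (-0.53) and Ccl12 (-0.71) passed as lower, that is, relative to the macrophage markers. The median of the 8 genes there was -0.15, beside -0.52 over all tested genes. With array medians set equal 6 of the 8 were higher and 0 lower (median 0.51, beside 0.14 over all tested genes, of which 12.9% were higher and 6.04% lower).

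**Figure D3:**
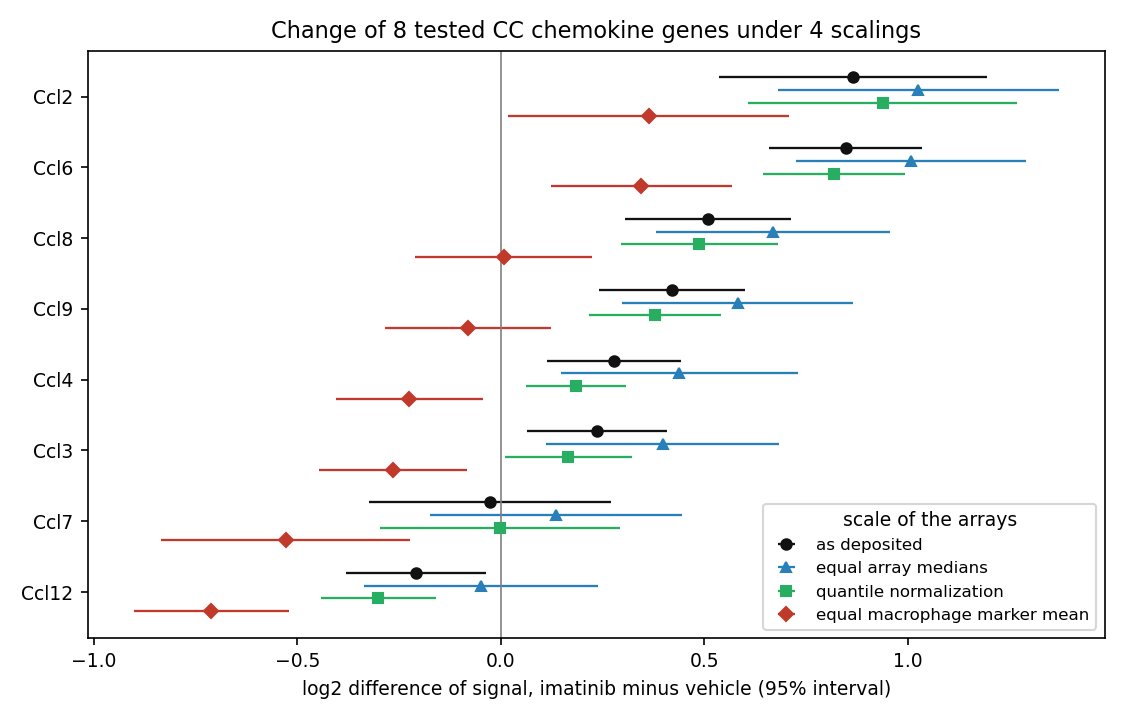
Log2 difference of signal (imatinib minus vehicle) with its 95% interval for the 8 tested CC chemokine genes on the deposited scale, with equal array medians, after quantile normalization and with equal macrophage marker means. Equal medians and equal marker means shift all genes by a constant; on the macrophage-marker scale Ccl3, Ccl4, Ccl7 and Ccl12 lie below 0 and Ccl2 and Ccl6 above it.

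Markers of other cells also differed between the groups, and their part in the chemokine values was not tested. The counts of calls below stand beside 6.80% higher and 8.73% lower over all tested genes. All 13 epithelial markers were lower with imatinib (median -2.18; Krt19 -2.89 and Tspan8 -2.50), and their summed signal was 6761 and 6753 with imatinib, against 32958 and 33368 with vehicle. Of 10 fibroblast genes tested 7 were lower and 0 higher (median -0.996), and of 5 GIST and Cajal cell genes 3 were lower and 0 higher. Among leukocytes, 3 of 5 monocyte genes were higher (F13a1 1.91-fold and Chil3 1.78-fold among them). In that list Fn1 was lower (-0.58, limma adjusted p = 0.0037) and Plac8 was at -0.27 (adjusted p = 0.074). Of 8 dendritic cell genes 3 were higher (Cd209a 2.80-fold and Flt3 2.21-fold among them), while Cd24a was at -0.37 (adjusted p = 0.074). With each tested on its own, 1 dimmer probe set of Cd24a was lower (-0.80, limma adjusted p = 0.0051) and another was at 0.07 (adjusted p = 0.81). Of 6 NK and cytotoxic genes 3 were higher, Gzma (1.45-fold), Klrd1 (1.38-fold) and Ccl5, which is itself a CC chemokine. Of 4 neutrophil genes 2 were higher (S100a8 1.87-fold, Csf3r 1.63-fold). By brightest probe sets, none of these leukocyte lists apart from the monocyte list had a lower call. Of 6 B and plasma cell genes, 2 were higher (Cd22 1.79-fold among them) and 1, Ighm, was lower by its brightest probe set (-0.62), although other probe sets of Ighm went both ways (from -1.43 to 0.84, both called with each tested on its own). By brightest probe sets, no gene was called among 9 T cell genes (limma, 1 at an unadjusted p under 0.05), 3 eosinophil and mast cell genes (1) or 5 endothelial genes (0). With each probe set tested on its own, a dimmer one of the T cell gene Cd28 rose (0.96, limma adjusted p = 0.027), while its brightest was at 0.13. A dimmer one of Il7r was at -0.47 (adjusted p = 0.12). The summed signal was 2920 and 3135 with imatinib and 3671 and 3122 with vehicle for T cell genes, and 625 and 599.8 against 559 and 609 for eosinophil and mast cell genes. The Gapdh control probe sets, which report on RNA integrity, gave a 3′ over 5′ ratio of 2.34 and 2.09 on the imatinib arrays, against 2.91 and 2.76 on the vehicle arrays. For the beta-actin control probe sets this ratio was 3.06 and 2.71 on the imatinib arrays, against 3.99 and 3.58 on the vehicle arrays. Both ratios were thus higher with vehicle, and their part in the chemokine values was not tested. Fewer cells of a type and less RNA per cell cannot be told apart in these bulk samples.

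Differences between neighbouring genes on the same array do not depend on a constant shift of an array's log2 values, whereas quantile normalization can change them. They are given here on the deposited scale. The log2 value of Ccl2 minus that of Ccl7 was -0.24 and -0.32 on the imatinib arrays, against -1.33 and -1.01 on the vehicle arrays, a shift of 0.89. For Ccl12 minus Ccl8 it was 0.97 and 1.02 on the imatinib arrays, against 1.67 and 1.76 on the vehicle arrays, a shift of -0.72. In both of these pairs 1 gene gained signal on its neighbour, and the groups did not overlap. In the run of 4 genes, Ccl6 gained on its neighbours on either side. Ccl9 minus Ccl6 was 0.36 and 0.29 with imatinib, against 0.78 and 0.71 with vehicle (shift -0.43). Ccl6 minus Ccl3 was -1.35 and -1.28 with imatinib, against -2.00 and -1.85 with vehicle (shift 0.61). Ccl3 minus Ccl4 was -0.41 and -0.40 with imatinib and -0.31 and -0.42 with vehicle, so these groups overlapped and the shift was -0.04. An exact two-sided permutation test over 4 arrays cannot give a p below 0.33, and it gave 0.33 for the first 4 pairs and 1 for Ccl3 and Ccl4 (0.42 and 1 adjusted over the 5 pairs). The shift of Ccl9 minus Ccl6 rests on the brighter probe set of Ccl9, and the dimmer one rose by 0.94, about as much as Ccl6.

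**Figure D4:**
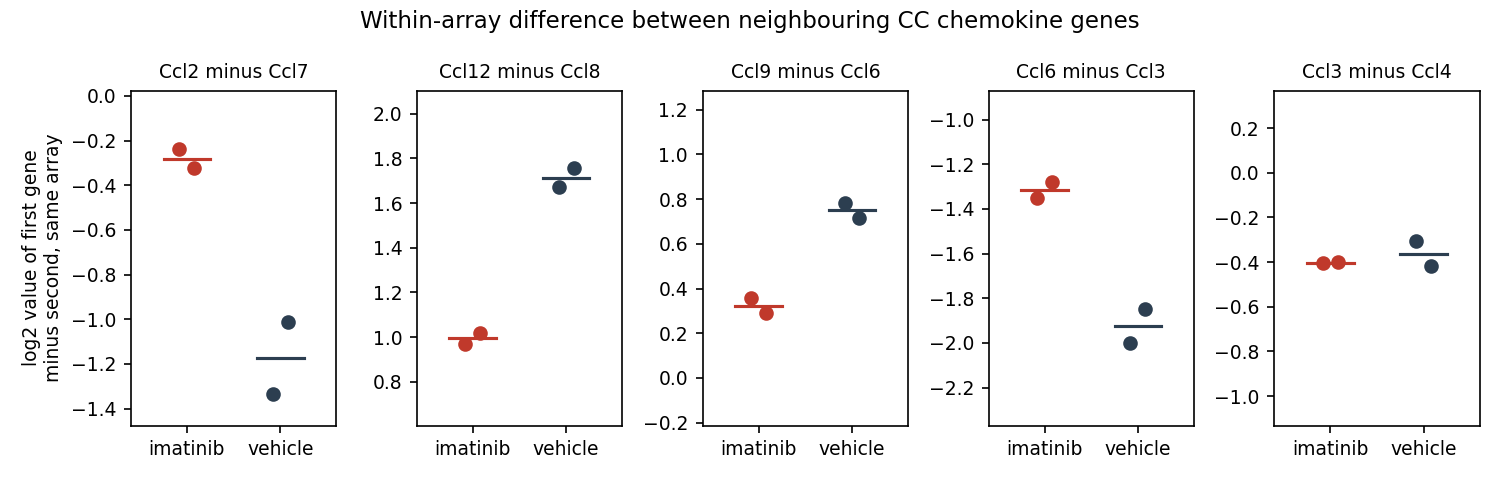
Log2 value of 1 gene minus that of its chromosomal neighbour on the same array, for 5 pairs of CC chemokine genes on the imatinib arrays (red) and vehicle arrays (dark blue), with 1 point for each array and a line at the group mean; each panel spans 1.5 log2 units. The groups are apart in the first 4 pairs and overlap for Ccl3 minus Ccl4.

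The 5 tested genes whose 4 array values, centred on their own mean, lay nearest to those of Ccl2 were Mgl2, Slc25a33, Igsf6, Pde4b and F13a1, at Euclidean distances of 0.035 to 0.079 log2 units over the 4 arrays. Mgl2 encodes a galactose-type lectin of macrophages (log2 difference 0.84 ± 0.12, SE), Pde4b a cyclic AMP phosphodiesterase (0.81 ± 0.10) and F13a1 the A chain of coagulation factor XIII (0.93 ± 0.10). With 2 groups of 2 arrays the likeness reflects mainly a rise of the same size.

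Of the other CC chemokines, 8 of 11 listed genes had a probe set with 1 symbol and Ccl5 alone passed the filter. Ccl5, a chemokine made by cytotoxic lymphocytes and macrophages, read 2823 and 2523 with imatinib and 2079.8 and 2115 with vehicle and rose 1.27-fold (adjusted p = 0.025). Ccl20, a chemokine of gut epithelium that binds CCR6, was below the filter and read 13.8 and 15.6 on the imatinib arrays, against 175.7 and 160.5 on the vehicle arrays. In the fit without the filter, where 2.87% of genes were higher and 4.37% lower, Ccl20 fell by 2.10 on the log2 scale (SE 0.25, limma adjusted p = 0.0047). Its imatinib signals are near those of Ccl24, so the size of this difference is set largely by the added 32 (the mean signals had a ratio of 0.0876). Ccl22, named after its values were seen because it shares the receptor CCR4 with Ccl17, read 82.5 and 76.5 with imatinib and 43.9 and 50.6 with vehicle, and did not pass in that fit (0.49 ± 0.25, adjusted p = 0.34).

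Among CC chemokine receptors and scavengers, 13 of 14 listed genes were measured and 9 tested. Beside 6.80% higher and 8.73% lower over all tested genes, 1 of these 9 was higher and 0 lower (limma). At an unadjusted p under 0.05 the counts were 2 and 1, beside 1032 and 1255 of 8145, and the list median was -0.14. The gene that rose was Ccrl2, an atypical receptor that binds chemerin (2764 and 2679.6 with imatinib and 1139.9 and 1229 with vehicle, 2.26-fold, adjusted p = 6.9e-06). Ccr1, the receptor of Ccl3, Ccl6 and Ccl9, read 4915 and 4726 with imatinib and 4680.4 and 4946 with vehicle, and its log2 difference was 0.00 ± 0.08 (adjusted p = 0.99). Ccr2, the receptor of Ccl2, Ccl7 and Ccl12, read 1779.95 and 2130.4 with imatinib and 2363 and 2155 with vehicle (-0.21 ± 0.10, adjusted p = 0.22).

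Of 16 NF-kappaB and AP-1 factors and inhibitors listed, 15 were tested, and 9 of these were higher and 0 lower (limma, list median 0.36). At an unadjusted p under 0.05 the counts were 10 and 0. For this list and the next, the shares over all tested genes were 6.80% higher and 8.73% lower. The 9 called higher were AP-1 genes, Atf3 or inhibitors, and none of the NF-kappaB subunit genes tested was called. The subunit gene Nfkb1, also listed, had no probe set with 1 symbol and was not tested. Rela was at 0.10, Rel at 0.03, Relb at 0.01 and Nfkb2 at -0.10 (limma adjusted p from 0.57 to 0.98). The AP-1 genes Fosb (2.07-fold) and Junb (1.54-fold), the stress factor gene Atf3 (1.72-fold) and the inhibitor gene Tnfaip3 (1.95-fold) had the largest increases by each gene's brightest probe set. A dimmer probe set of Nfkbiz, an atypical inhibitor of the IkB family, rose as much as Tnfaip3 (1.95-fold, adjusted p = 0.00050, each probe set on its own). The probe sets of Nfkbia, another feedback inhibitor, disagreed. The brightest did not pass (0.23 ± 0.08, adjusted p = 0.066), while with each probe set tested on its own a pair of others rose (0.61, adjusted p = 0.00030, and 0.45, adjusted p = 0.0050) and the dimmest was at -0.18 (adjusted p = 0.38). Of 7 genes of the IL-4 receptor and STAT6 pathway, 3 were higher and 0 lower (3 and 1 at an unadjusted p under 0.05; list median 0.26): the adaptor gene Irs2 (2.15-fold), the kinase gene Jak1 (1.42-fold) and Stat6 itself (1.26-fold). These calls rest on each gene's brightest probe set. In the fit without the filter Jak1 passed (limma adjusted p = 0.015), while Irs2 (0.11) and Stat6 (0.059) did not. Irs2 read 353 and 301 with imatinib and 85.5 and 205 with vehicle. The shift of 0.50 with equal macrophage marker means also applies to the genes of these lists, and it exceeds the 0.34 of Stat6. With each probe set tested on its own, the dimmer ones of Jak1 did not pass (-0.05 and 0.13, limma adjusted p = 0.89 and 0.72). Neither did that of Stat6 (0.07, adjusted p = 0.85). The receptor gene Il4ra had a log2 difference of 0.26 ± 0.12 (adjusted p = 0.19), and Ccl17 and Ccl24, the targets of this pathway in the family, lay below the filter.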

How the data were processed

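Sorted TAMs were measured on 2 imatinib and 2 vehicle arrays. The deposited values are linear signal intensities, and the submitters' processing notes name MAS5 and Affymetrix Expression Console as the authors' tools, with no version. This scaling ties every gene to the bright part of its array. Of 22690 probe sets, 64 controls were left out; of the others, 20380 had 1 symbol in the platform annotation, 691 several and 1555 none. Of those with 1 symbol, 20351 matched RefSeq (GRCm38.p6) by Entrez ID, with 0 symbols changed.

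Limma (lmFit, eBayes with trend, two-sided, prior 8.71 and residual 2 degrees of freedom) was fitted to log2(signal + 32) of 8145 genes, each its brightest probe set, with a Benjamini-Hochberg threshold of 0.05, and was tested on simulated data. Named genes are all members, up to 4 called and 2 bright uncalled genes of each pathway list, up to 2 called genes of each marker list, and the 5 nearest to the called member with the largest increase. Further genes were named after the values were seen, some of them to show listed genes that did not rise. The members and lists were chosen with earlier results of these data known, and the neighbour pairs after seeing the data. The median signal was 122 and 134 on imatinib arrays and 152 and 141 on vehicle arrays; the number of arrays limits the precision. Pearson's r of log2 values over probe sets (no independent replicates) was 0.984 within imatinib, 0.981 within vehicle and 0.968 to 0.972 between them. Alternatives changed the pseudocount (1 or 64), the filter (none or the 60th percentile), the scale (quantile, equal medians, equal macrophage markers), the probe sets (their mean, or each tested alone), the trend and prior, the replicate block and the arrays left out. Tools were R 4.3.3, limma 3.58.1, Python 3.11.15, pandas 2.3.3, numpy 2.4.6 and matplotlib 3.10.9.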

Additional observations from a re-analysis of the deposited data

How the results depend on the processing

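Of the 8 tested genes, 5 were called higher on the deposited scale, 1 with equal macrophage marker means and 2, Ccl2 and Ccl6, without the variance trend. The genes called lower were 0 on the deposited scale, 1 (Ccl12) after quantile normalization and 4 with equal macrophage marker means. That scale turned the sign of Ccl3 (-0.27), Ccl4 (-0.22) and Ccl9 (-0.081). With 1 array left out, 4 to 5 genes were higher and 0 lower; the lone array is then assumed to vary like the other group. Of 130 values of the 8 tested genes under the alternatives, 112 kept direction and side of the threshold or were uncalled throughout, in either direction. With the sign kept, 11 lost a call and 4 gained one. The other 3 turned sign and were called in the main fit, the alternative or both. The causes were not tested beyond the shift of scale. Over all genes, 554 were higher and 711 lower, against 1050 and 492 with equal medians, 91 and 5679 with equal macrophage marker means, 199 and 517 without the trend, 356 and 541 without the filter, and 291 and 558 without imatinib array 1 (349 and 506 without vehicle array 1). The groups share replicate numbers, but no label says that a number pairs samples, and deviations of same-numbered arrays correlated at -0.13. With the replicate block 4 members were higher and 0 lower (430 and 635 over all genes); Ccl4 lost its call. Dim signal limits Ccl17 and Ccl24, whose changes could not be measured here.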
